A study of Caenorhabditis elegans with 4 samples.

Results

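The mitochondrial ribosomal protein genes of *C. elegans* were read in 4 poly(A) RNA libraries of animals on *xrn-2* or mock RNAi food. They were chosen by name alone, as every gene of the counts table with the symbol *mrpl* or *mrps* and a number. This gave 69 genes of the 20380 in the table, of which 40 are named for the large subunit (*mrpl*) and 29 for the small subunit (*mrps*). Of the 70 symbols of this form, *mrpl-42* was not analysed here. The genes were picked out as a group with earlier fold changes of these data known, so the differences below are a description of the group. Worms of the wild-type strain N2 were grown at 20°C, between the L1 and the L4 stage, on bacteria making double-stranded RNA against *xrn-2*, which encodes the nuclear 5′ to 3′ exonuclease XRN2. Mock animals, also N2, were grown at the same temperature and over the same stages on bacteria with the insertless L4440 vector. There were 2 libraries of each condition, named replicates 1 and 2. The *xrn-2* RNAi animals grow slowly and were kept longer on their food, and the mid-L4 stage was judged from the vulva. The condition therefore cannot be told apart from the time in culture. The study also compared the libraries with an hourly time course of L4 development. It judged the pair of replicate 1 well matched in stage and the pair of replicate 2 less well matched. Both libraries of replicate 2 were closest to later time points than those of replicate 1, and the study focused on replicate 1.

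The mitochondrial ribosome, or mitoribosome, makes the few proteins of the respiratory chain and the ATP synthase that the mitochondrial genome still encodes. Its RNAs come from that genome, but its proteins are all encoded in the nucleus, made in the cytosol and imported. Some descend from bacterial ribosomal proteins and carry their numbers, and others have no bacterial counterpart. In *C. elegans* larvae, knockdown of such genes, *mrps-5* above all, is known to induce the mitochondrial unfolded protein response and to lengthen life.

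The deposited counts summed to 48451504 and 43324340 in *xrn-2* RNAi replicates 1 and 2, and to 41105706 and 41998429 in mock replicates 1 and 2. Below, a scaled count is a count divided by its library's total and multiplied by the mean total of 43719995. The transcript aimed at was higher than in mock in replicate 1 and slightly lower in replicate 2 (log2 fold changes of 0.31 and -0.038). *xrn-2* had 5265 and 6032 scaled counts in the libraries labelled *xrn-2* RNAi, against 4247 and 6192 in mock (edgeR quasi-likelihood adjusted p = 0.897). The study reports that *xrn-2* mRNA accumulates when XRN2 is inactivated, and that *xrn-2* RNAi raised a reporter of its operon. The part of this in the *xrn-2* counts was not tested. Below, *xrn-2* RNAi names these libraries by their labels. The mock libraries were the least alike of the 6 library pairs (r = 0.776 over 13967 genes, log2 scale). Of 8 intestinal genes, the summed level was 54462 and 403363 in *xrn-2* RNAi, against 7155 and 2420860 in mock, where *vit-5* was at 0 in replicate 1. The 6 yolk genes among them carried these sums except in mock replicate 1. There the other 2, *elt-2* and *ges-1*, had 1522 and 2372 scaled counts and made up most of the sum. *elt-2* and *ges-1* had log2 fold changes of -0.13 and 0.49 and of -0.10 and 0.46 in replicates 1 and 2. The summed level of 4 hypodermal genes, which encode cuticle collagens, came to 57234 and 30821 in *xrn-2* RNAi and to 113288 and 94010 in mock. In replicate 2, *col-19* made up most of the mock sum and was lower in *xrn-2* RNAi, and the other 3 were higher, while in replicate 1 *col-19* was higher and the other 3 were lower. That of 11 germline and oocyte genes came to 110175 and 143629 in *xrn-2* RNAi and to 63898 and 138347 in mock. Of 30 *msp* sperm genes, 18 passed the filter on low counts, and the list summed to 8238 and 10360 in *xrn-2* RNAi and to 4209 and 9355 in mock. The part of these differences in the values below was not tested. In RNA of whole animals, fewer cells of a type and less RNA per cell cannot be told apart.

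All 69 genes were expressed in every library and passed the filter on low counts, which 16178 genes passed. The lowest single count was 435 reads. The mean scaled count over the 4 libraries had a median of 1708 over the genes, and ranged between 613 and 5745 for all but *mrpl-44*. Each gene lay above 60.1% to 97.8% of the genes in the table. Per kb of exon, which allows levels to be compared between genes, the median was 2131 for the large subunit genes and 2335 for the small subunit genes. The 77 cytosolic ribosomal protein genes had a median of 114572 scaled counts per kb and all tested genes a median of 480. The mitochondrial genes were thus far below the cytosolic ribosomal protein genes, and the subunits were close to each other in level.

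**Figure D1:**
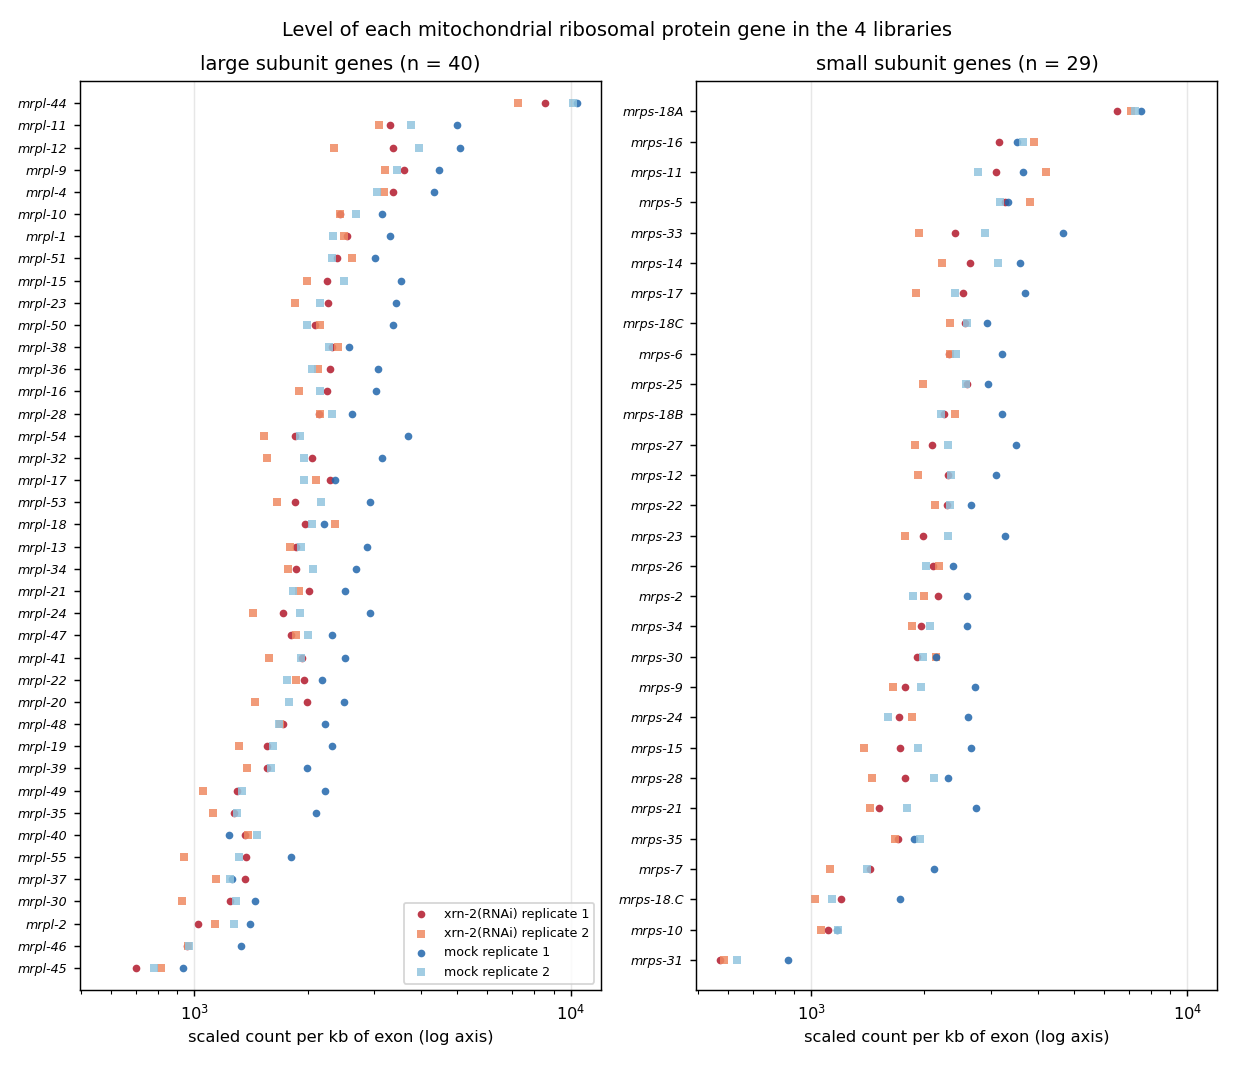
Scaled count per kb of exon (log axis) of each of the 40 large and 29 small subunit genes in the 2 *xrn-2* RNAi libraries (red circle, orange square) and the 2 mock libraries (dark blue circle, light blue square), ordered by mean. *mrpl-44* and *mrps-18A* lay above the rest, and mock replicate 1 was the highest of the 4 libraries for 60 genes, against 29% of all tested genes.

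Of the large subunit genes, *mrpl-44* had the highest level per kb. It had 8524 and 7242 scaled counts per kb in *xrn-2* RNAi, against 10394 and 10107 in mock. Both *xrn-2* RNAi libraries were below both mock libraries. In the WBcel235 annotation 166 exonic bases of *mrpl-44* are shared with *mccc-2*, a gene of the same strand that has no row in the table. How the reads of this locus were divided is not known, and its level is uncertain.

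Next came *mrpl-11* and *mrpl-12*, homologs of the bacterial proteins of the ribosomal stalk, where translation factors dock, and *mrpl-9*. *mrpl-12* had 3372 and 2346 scaled counts per kb in *xrn-2* RNAi, against 5071 and 3959 in mock. *mrpl-11* had 3317 and 3098 in *xrn-2* RNAi, against 4978 and 3768 in mock. For both genes the conditions did not overlap. *mrpl-9* had 3601 and 3213 scaled counts per kb in *xrn-2* RNAi, against 4470 and 3443 in mock, and its conditions overlapped.

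The lowest large subunit genes per kb were *mrpl-2*, *mrpl-46* and *mrpl-45*. *mrpl-2*, homolog of a bacterial protein near the peptidyl transferase centre, had 1020 and 1134 scaled counts per kb in *xrn-2* RNAi, against 1406 and 1278 in mock. *mrpl-46* had 958 and 960 in *xrn-2* RNAi, against 1328 and 970 in mock. *mrpl-45*, whose human homolog anchors the ribosome to the inner membrane, had 701 and 813 in *xrn-2* RNAi, against 935 and 779 in mock. Only *mrpl-45* of these overlapped between conditions.

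Among the small subunit genes, *mrps-18A* was highest with 6498 and 7093 scaled counts per kb in *xrn-2* RNAi, against 7509 and 7237 in mock. Its human homolog sits in the large subunit in spite of its name. In WBcel235 *iglr-2* on the same strand shares 24% of its exonic bases, and whether these counts hold reads of both is not known. *mrps-16*, of which *ilcr-2* on the same strand shares 27.8%, had 3154 and 3907 scaled counts per kb in *xrn-2* RNAi, against 3528 and 3649 in mock. The *xrn-2* RNAi libraries of *mrps-16* lay on either side of the mock libraries.

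*mrps-11*, homolog of a protein of the platform of the bacterial small subunit, had 3097 and 4208 scaled counts per kb in *xrn-2* RNAi, against 3649 and 2771 in mock. *mrps-5* had 3265 and 3826 in *xrn-2* RNAi, against 3335 and 3184 in mock. In both genes the highest library was *xrn-2* RNAi replicate 2 and the conditions overlapped.

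At the low end, *mrps-18.C* had 1199 and 1024 scaled counts per kb in *xrn-2* RNAi, against 1718 and 1138 in mock. *mrps-10* had 1108 and 1064 in *xrn-2* RNAi, against 1169 and 1177 in mock. *mrps-31*, a protein with no bacterial counterpart, had 573 and 587 in *xrn-2* RNAi, against 868 and 635 in mock. *mrps-10* and *mrps-31* did not overlap between conditions, and *mrps-18.C* did.

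To see what *xrn-2* RNAi changed, log2 fold changes of *xrn-2* RNAi over mock were taken within each replicate, with a pseudocount of 8 added to the scaled counts. The mitochondrial ribosomal protein genes were lower as a group, by a modest amount. Over the 69 genes, the median of the log2 fold changes was -0.40 in replicate 1 and -0.15 in replicate 2, against 0.17 and 0.37 for all tested genes. The spread over the genes was small, with an SD of 0.24 in each replicate, against 0.96 and 1.34 for all tested genes. A small spread was not particular to them, as the 77 cytosolic ribosomal protein genes had SDs of 0.25 and 0.11. In replicate 1, 67 genes were lower, against 41% of all tested genes, and in replicate 2, 49, against 26.5%. Of the 69 genes, 47 were lower in both replicates, against 16.6% of all tested genes, and 0 were higher in both, against 49.1%. None was at least 2-fold lower in either replicate, against 6.30% and 6.14% of all tested genes.

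The size of this difference depends on how libraries are scaled, since all genes together were shifted by 0.17 and 0.37 when libraries were scaled by their totals. With TMM scaling, which sets the middle of the genes near 0, the median over the 69 genes was -0.57 in replicate 1 and -0.52 in replicate 2, and that over all tested genes was 0.011 and 0.014. Of the 69 genes, 68 were lower in both replicates with TMM scaling, against 29.1% of all tested genes. The exception was *mrps-11*. Relative to the median of all tested genes, then, the mitochondrial ribosomal protein genes were lower by much the same amount in both replicates. By total counts their median was lower in replicate 1. The 77 cytosolic ribosomal protein genes had TMM medians of 0.017 and -0.44. Beside these, the mitochondrial ones were clearly lower in replicate 1 and only slightly lower in replicate 2.

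**Figure D2:**
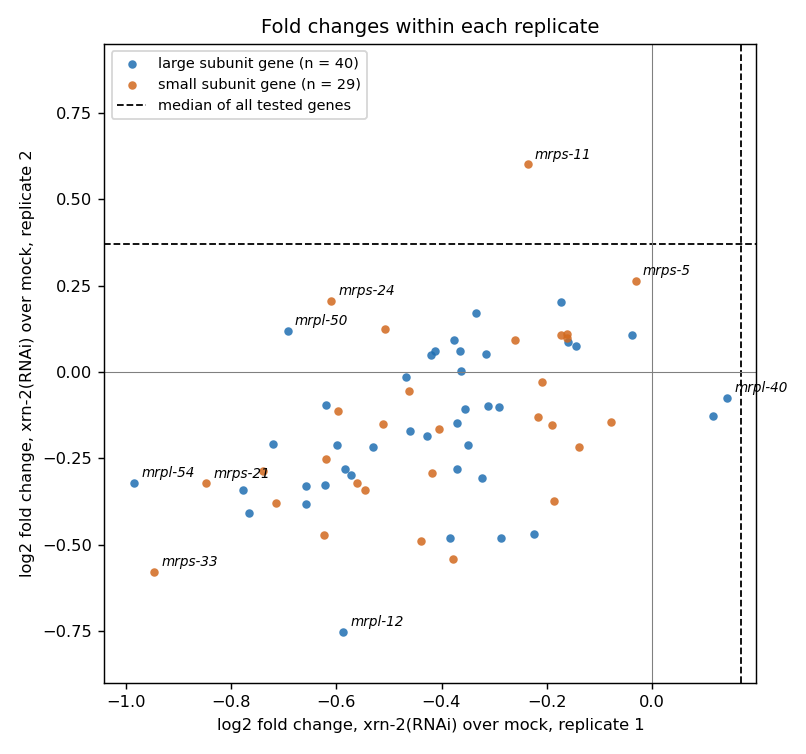
Log2 fold change of *xrn-2* RNAi over mock in replicate 1 (x axis) and replicate 2 (y axis) for the 40 large (blue) and 29 small subunit genes (orange), with libraries scaled by totals. Dashed lines mark the medians of all tested genes, 0.17 and 0.37. All genes but *mrps-11* lay below both medians, and 47 lay below 0 in both replicates.

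The 4 libraries themselves showed where the differences lay. Mock replicate 1 was the highest library for 60 of the 69 genes, against 29% of all tested genes. *xrn-2* RNAi replicate 2 was the lowest for 41, against 15.4% of all tested genes. The lowest library was mock replicate 2 for 16 genes, *xrn-2* RNAi replicate 1 for 11 and mock replicate 1 for 1. Of all tested genes, 42.2%, 8.46% and 33.9% had these libraries lowest, in the same order. Together the genes took 0.316% and 0.299% of the counts in *xrn-2* RNAi, against 0.413% and 0.330% in mock. By this share, mock replicate 2 was nearer to the *xrn-2* RNAi libraries than to mock replicate 1. Mock replicate 2 was below mock replicate 1 for 65 of the 69 genes, against 57.7% of all tested genes. The mock libraries differed from each other by a median log2 of -0.40 over these genes, replicate 2 minus replicate 1, against -0.16 over all tested genes. With TMM scaling the differences were -0.29 and -0.063. In the study's time course mock replicate 2 was closest to a later L4 time point than mock replicate 1, and the part of stage was not tested. The *xrn-2* RNAi libraries differed by -0.10 by totals and by -0.20 with TMM scaling, again replicate 2 minus replicate 1. Taken across replicates by totals, the median log2 fold change was -0.042 for *xrn-2* RNAi replicate 1 over mock replicate 2 and -0.53 for *xrn-2* RNAi replicate 2 over mock replicate 1. These crossed medians include any shift of all genes between the libraries, and that shift was not measured for the crossed pairs.

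**Figure D3:**
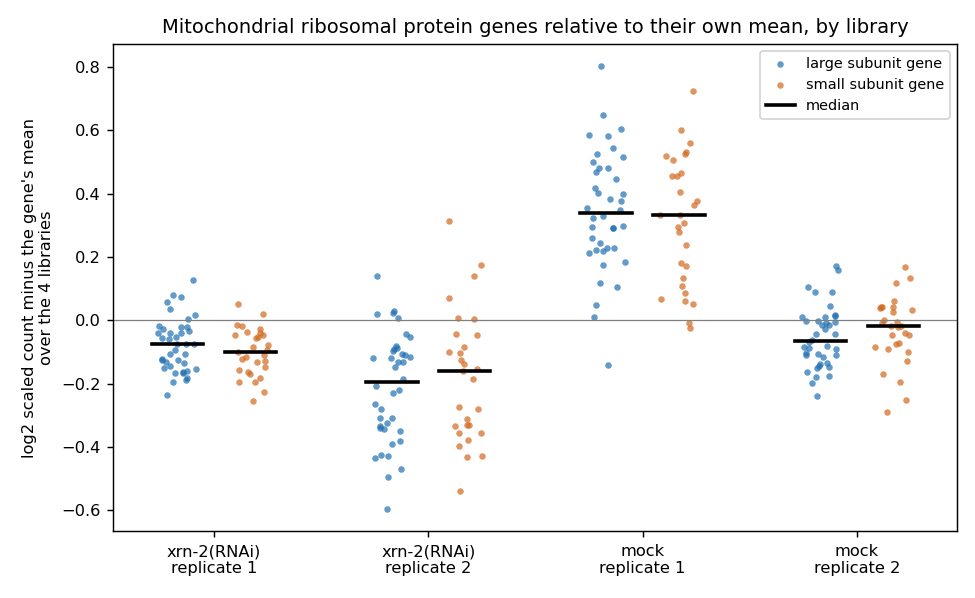
Log2 scaled count of each gene minus its mean over the 4 libraries, for the 2 *xrn-2* RNAi libraries and then the 2 mock libraries, with large subunit genes in blue, small subunit genes in orange and medians as bars. Mock replicate 1 stood above the other 3 libraries for both subunits, and the medians of the subunits lay close together in each library.

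For 36 of the 69 genes both *xrn-2* RNAi libraries were below both mock libraries, against 10.3% of all tested genes, and for 0 genes were both above, against 35.3%. With TMM scaling 68 genes were below without overlap, against 19.8% of all tested genes. Set against mock replicate 2 alone, without mock replicate 1, 37 genes had both *xrn-2* RNAi libraries lower by total counts, against 17.3% of all tested genes. The TMM count against mock replicate 2 alone was 68, against 36.2%.

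With edgeR's quasi-likelihood test, fitted with TMM scaling and the replicate as a block, all 69 genes had a log2 fold change below 0, against 46% of all tested genes. Their median was -0.56. A log2 fold change below 0 was not particular to them. It was also seen for 70 of the 77 cytosolic ribosomal protein genes, with a median of -0.21. Of the lists described below, it was seen for 7 of 7 mitochondrial translation factors, 10 of 12 chaperones and proteases, 8 of 11 tRNA synthetases and 1 of 5 genome maintenance genes. An unadjusted p under 0.05 was reached by 16 of the 69 genes, all lower, where 5.83% of all tested genes were lower and 6.66% higher at this level. After Benjamini-Hochberg adjustment over 16178 genes edgeR called 0 of the 69, as it called 0% of all genes, and the smallest adjusted p was 0.291. DESeq2 with the same design called 37 of them lower and 0 higher at an adjusted p of 0.05, against 8.9% and 8.07% of all tested genes. The 37 comprised 23 large and 14 small subunit genes, with log2 fold changes of -1.04 to -0.47. The calls thus differed between the tools, and an exact permutation test of 2 libraries against 2 cannot go below p = 0.333.

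The gene lowest by its mean fold change was *mrps-33*, a small subunit protein without a bacterial counterpart. It had 1221 and 982 scaled counts in *xrn-2* RNAi, against 2361 and 1470 in mock. Both *xrn-2* RNAi libraries were lower than both mock libraries. Its edgeR log2 fold change was -1.04 ± 0.25 (SE, n = 2 libraries each), with an edgeR adjusted p of 0.291 and a DESeq2 adjusted p of 4.19e-06.

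*mrpl-12* had 2209 and 1537 scaled counts in *xrn-2* RNAi, against 3322 and 2593 in mock. Its log2 fold changes were -0.59 and -0.75, and that of replicate 2 was the lowest of the 69 genes. The edgeR adjusted p was 0.315.

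*mrpl-54*, a large subunit protein with no bacterial counterpart, had 744 and 614 scaled counts in *xrn-2* RNAi, against 1482 and 768 in mock. Its conditions did not overlap, but *xrn-2* RNAi replicate 1 lay close to mock replicate 2. The log2 fold changes were -0.99 and -0.32.

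*mrpl-24*, homolog of a bacterial protein that acts early in assembly of the large subunit, had 1709 and 1425 scaled counts in *xrn-2* RNAi, against 2914 and 1895 in mock. *mrps-21*, homolog of a small bacterial protein of the small subunit, had 632 and 597 in *xrn-2* RNAi, against 1143 and 748 in mock. In both genes mock replicate 1 stood far above the other libraries and the conditions did not overlap. The log2 fold changes in replicates 1 and 2 were -0.77 and -0.41 for *mrpl-24* and -0.85 and -0.32 for *mrps-21*.

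*mrps-15* and *mrpl-15*, homologs of RNA-binding proteins of the bacterial ribosome, completed the 5 genes with the smallest edgeR p. *mrps-15* had 2213 and 1779 scaled counts in *xrn-2* RNAi, against 3412 and 2469 in mock. *mrpl-15* had 2314 and 2051 in *xrn-2* RNAi, against 3653 and 2579 in mock. The conditions did not overlap in either gene, with edgeR adjusted p of 0.333 for *mrps-15* and 0.356 for *mrpl-15*.

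At the other end, *mrps-11* differed most from the group. It had 2363 and 3211 scaled counts in *xrn-2* RNAi, against 2785 and 2114 in mock, so that it was lower in replicate 1 and higher in replicate 2. The log2 fold changes were -0.24 and 0.60, and their difference was the largest of the 69 genes. In WBcel235 *inx-11* on the opposite strand shares 4.06% of its exonic bases. Such overlap was not particular to *mrps-11*. On the opposite strand, *W09D10.5* shares 8.09% of the exonic bases of *mrpl-12* and *C09D4.1* shares 7.04% of those of *mrpl-24*.

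*mrps-5* had 4810 and 5636 scaled counts in *xrn-2* RNAi, against 4913 and 4690 in mock. *mrpl-18*, whose bacterial homolog binds a small ribosomal RNA, had 1246 and 1500 in *xrn-2* RNAi, against 1405 and 1302 in mock. Both were below mock in replicate 1 and above it in replicate 2. The log2 fold changes were -0.031 and 0.26 for *mrps-5* and -0.17 and 0.20 for *mrpl-18*.

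*mrpl-17* had 1514 and 1390 scaled counts in *xrn-2* RNAi, against 1555 and 1290 in mock. *mrpl-40* had 909 and 925 in *xrn-2* RNAi, against 822 and 974 in mock. The conditions overlapped in both. *mrpl-40* and *mrpl-37* were the only genes of the 69 above mock in replicate 1 by total counts, and with TMM scaling *mrpl-40* was at -0.026 there.

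Other genes moved differently in the 2 replicates. *mrps-24* had 1026 and 1110 scaled counts in *xrn-2* RNAi, against 1570 and 961 in mock. *mrpl-50* had 2090 and 2163 in *xrn-2* RNAi, against 3383 and 1989 in mock. In both, the *xrn-2* RNAi libraries lay close together and between the mock libraries, which were far apart. The log2 fold changes in replicates 1 and 2 were -0.61 and 0.21 for *mrps-24* and -0.69 and 0.12 for *mrpl-50*.

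The subunits were then compared, since their proteins join in one particle. The median log2 fold changes in replicates 1 and 2 were -0.38 and -0.16 for the large subunit genes and -0.42 and -0.15 for the small subunit genes. The large minus small difference of the medians was 0.038 in replicate 1 and -0.0054 in replicate 2. Of the 40 large subunit genes 26 were lower in both replicates, and of the 29 small subunit genes 21, against 16.6% of all tested genes. With TMM scaling the medians were -0.55 and -0.53 for the large and -0.59 and -0.52 for the small subunit. No test of this difference was made.

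The summed large subunit counts were 1.32 and 1.22 times the small subunit counts in *xrn-2* RNAi, against 1.35 and 1.32 times in mock. Without *mrpl-44* the ratios were 1.07 and 1.00 in *xrn-2* RNAi, against 1.11 and 1.03 in mock. The ratio was lowest in *xrn-2* RNAi replicate 2 both with and without *mrpl-44*, and the 4 libraries spanned a narrow range. *mrps-18A* and *mrps-30* have human homologs in the large subunit. With both counted there, the large minus small difference was 0.065 in replicate 1 and 0.027 in replicate 2.

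A further grouping was chosen after the values were seen. Genes that carry the number of a bacterial ribosomal protein, up to 36 in the large and 21 in the small subunit, had medians of -0.43 and -0.15 (n = 41). Genes with higher numbers, most of them without a bacterial counterpart, had medians of -0.37 and -0.15 (n = 28). These are log2 fold changes of replicates 1 and 2, and their difference was not tested.

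Short genes were somewhat lower than long ones. The 23 genes with 309 to 655 exonic bases had median log2 fold changes of -0.51 and -0.29, those with 656 to 989 bases -0.35 and -0.10, and those with 995 to 2164 bases -0.38 and -0.13. All tested genes in the same length bins had medians of 0.086 and 0.25, 0.17 and 0.38, and 0.18 and 0.38, from short to long. Over the 69 genes, log2 exon length and log2 fold change had Pearson's r of 0.29 in replicate 1 and 0.22 in replicate 2, with Spearman's rho of 0.28 and 0.27. Exon length also went with the difference between the mock libraries, replicate 2 minus replicate 1 (r = 0.34, rho = 0.32). Genes are not independent replicates, the points share the same libraries, and the part of length in the fold changes was not tested. Between the replicates, which share no library, the fold changes of the 69 genes had r = 0.45 and rho = 0.48, against 0.36 and 0.33 over all tested genes.

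Many of these genes lie in operons, which in *C. elegans* are transcribed as 1 precursor from an upstream promoter and split into separate mRNAs by cleavage and *trans*-splicing. Of the 69 genes, 38 were listed as the first or second gene of an operon, or 55.1%, against 16.5% of all tested genes. They were the first gene in 17 operons and the second in 21, and in no listed operon were they both the first and the second gene. Only these positions were read, so later genes of an operon were not seen. Each therefore had a partner outside the group from the same precursor. The study was mainly about how XRN2 controls its own level. It used these libraries to ask whether XRN2 also acts on other operons, by looking for second genes that rise more than first genes.

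The mitochondrial ribosomal protein genes were lower in either position. The medians of their partners were above 0, as were those of all tested genes, at 0.17 and 0.37. As first genes they had median log2 fold changes of -0.41 and -0.13, against 0.17 and 0.36 for their partners. As second genes they had -0.44 and -0.15, against 0.20 and 0.12 for their partners. As first genes, 14 of 17 were below the partner in both replicates, where the first gene was below the second in both in 38% of 1353 listed operons. As second genes, 13 of 21 were below the partner in both replicates, against 30.5% of the listed operons. In 3 of the 38 operons the mitochondrial ribosomal protein gene was above its partner in both replicates. The 31 genes not listed as a first or second gene had medians of -0.36 and -0.16, close to those of the 38. Whether any of the 31 is a later gene of an operon was not checked, so they are not a group outside operons.

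**Figure D4:**
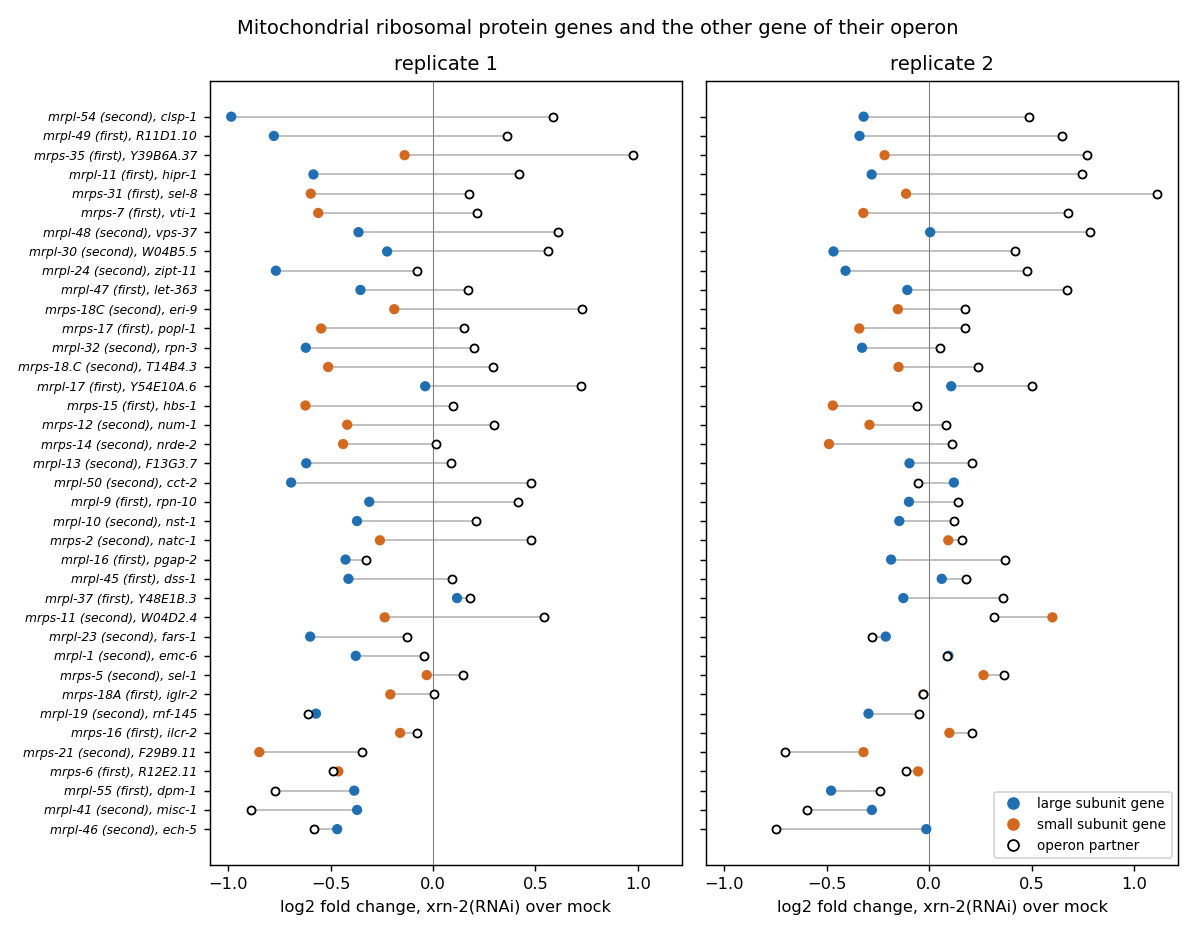
Log2 fold change of *xrn-2* RNAi over mock in replicate 1 (left) and replicate 2 (right), by operon. Filled circles are the 38 genes listed as first or second gene (blue large, orange small subunit). Open circles are the other listed gene of the same operon, and brackets give the position of the mitochondrial ribosomal protein gene. In most operons the filled circle lay left of the open one, and it did so in both replicates in 27 of the 38.

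The largest difference was in the operon of *clsp-1* and *mrpl-54*, where *mrpl-54* is the second gene. *clsp-1* had 2119 and 2698 scaled counts in *xrn-2* RNAi, against 1407 and 1924 in mock, and was higher in both *xrn-2* RNAi libraries, opposite to *mrpl-54*. The log2 fold change of *mrpl-54* minus that of *clsp-1* was -1.57 in replicate 1 and -0.81 in replicate 2.

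*mrpl-49* and *mrps-35*, neither of which has a bacterial counterpart, are first genes. *mrpl-49* had 845 and 687 scaled counts in *xrn-2* RNAi, against 1453 and 872 in mock, while its second gene *R11D1.10* had 761 and 854 in *xrn-2* RNAi, against 591 and 542 in mock. *mrps-35* had 2313 and 2278 in *xrn-2* RNAi, against 2547 and 2651 in mock, while its second gene *Y39B6A.37* had 1016 and 1338 in *xrn-2* RNAi, against 512 and 781 in mock. In both operons the first gene was lower and the second higher without overlap of the conditions. In WBcel235 *sws-1* on the opposite strand shares 11.1% of the exonic bases of *mrps-35*. The second minus first log2 difference was 1.14 and 0.99 in the *mrpl-49* operon and 1.12 and 0.99 in the *mrps-35* operon.

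On the chromosomes the genes were unevenly spread. Chromosome III held 22 of them, or 31.9%, against 15.1% of all tested genes, and chromosome X held 0, against 14.1%. Chromosomes I, II, IV and V held 15, 12, 10 and 10.

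Other genes of mitochondrial gene expression were counted from lists taken by symbol. Of the 7 genes of mitochondrial translation factors and their helpers, 4 were lower in both replicates and 0 higher, where 16.6% and 49.1% of all tested genes were, with medians of -0.44 and -0.049. DESeq2 called 4 of them lower, against 8.9% of all tested genes, and edgeR 0, with 1 at an unadjusted p under 0.05. *tsfm-1*, the exchange factor of the elongation factor EF-Tu, had 1812 and 1661 scaled counts in *xrn-2* RNAi, against 4300 and 2213 in mock. *dap-3*, which encodes a protein of the small subunit that does not carry the *mrps* name, had 2989 and 2883 in *xrn-2* RNAi, against 4056 and 3375 in mock. Both had their *xrn-2* RNAi libraries below both mock libraries. *gfm-1*, elongation factor G, had 6177 and 7417 in *xrn-2* RNAi, against 6940 and 6294 in mock, and overlapped.

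The 11 tRNA synthetase genes whose symbols end in -2 had medians of -0.039 and 0.17. In both replicates 1 was lower and 3 were higher, against 16.6% and 49.1% of all tested genes. Of the 11, *aars-2* is known as the cytosolic enzyme. Among 5 genes that copy, package and transcribe the mitochondrial genome, 3 were higher and 1 was lower in both replicates, where 49.1% and 16.6% of all tested genes were. *polg-1*, its DNA polymerase, had 1354 and 2110 scaled counts in *xrn-2* RNAi, against 626 and 864 in mock (DESeq2 adjusted p = 0.000128, edgeR adjusted p = 0.336). *mtss-1*, its single-stranded DNA binding protein, had 3163 and 2899 in *xrn-2* RNAi, against 4612 and 3205 in mock (DESeq2 adjusted p = 0.0047, edgeR adjusted p = 0.430). The genes of the mitochondrial genome itself were not analysed here.

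The 12 genes of mitochondrial chaperones, proteases and the unfolded protein response had medians of -0.16 and 0.10. Of these, 4 were lower and 3 higher in both replicates, where 16.6% and 49.1% of all tested genes were. *hsp-6*, the chaperone whose level reports this response, had 25457 and 34708 scaled counts in *xrn-2* RNAi, against 32691 and 42110 in mock. Its log2 fold changes were -0.36 and -0.28, and its conditions overlapped. The 77 cytosolic ribosomal protein genes had medians of 0.19 and -0.066, and with TMM scaling of 0.017 and -0.44. The TMM medians of the mitochondrial ribosomal protein genes, -0.57 and -0.52, were thus far from these in replicate 1 and near them in replicate 2. By totals 12 of the cytosolic genes were lower and 16 higher in both replicates, against 16.6% and 49.1% of all tested genes. Of the mitochondrial ribosomal protein genes 37 were called lower by DESeq2, and of the cytosolic ones 2, against 8.9% of all tested genes.

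**Figure D5:**
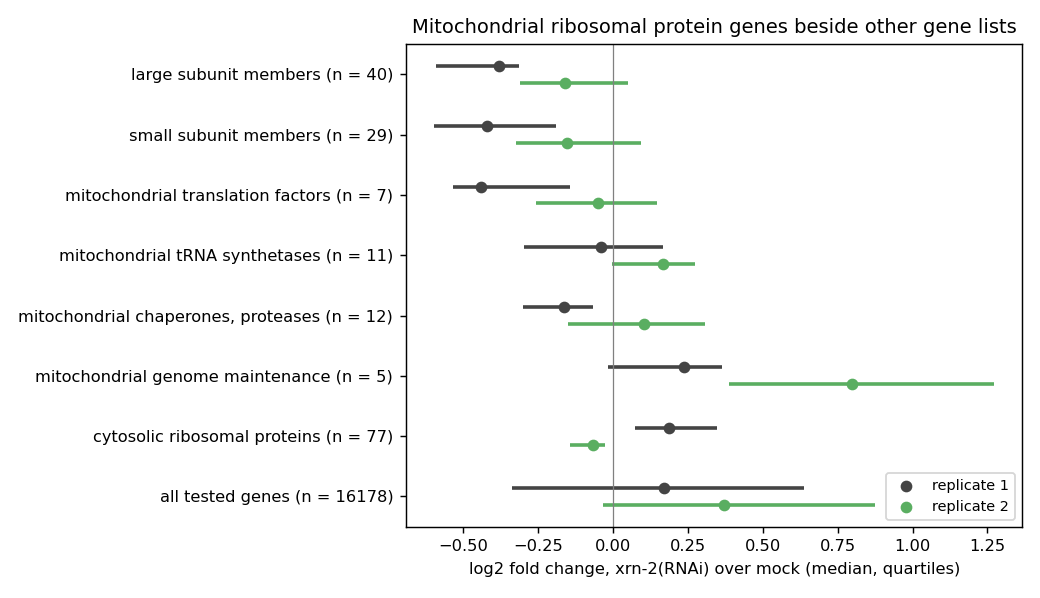
Median log2 fold change of *xrn-2* RNAi over mock (points) with quartiles (bars) in replicate 1 (dark) and replicate 2 (green), for both subunits of the mitochondrial ribosome, for the other gene lists and for all 16178 tested genes, with libraries scaled by totals. Both subunits lay below the median of all tested genes in each replicate, with medians of -0.42 to -0.15, against 0.17 and 0.37.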

How the data were processed

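Poly(A) RNA of N2 animals was sequenced in 4 libraries, 2 per condition. The authors made TruSeq libraries, aligned the reads to ce10 with qAlign of QuasR, and counted reads overlapping the exons of each WormBase gene. They deposited these counts as whole numbers without normalization. Whether counting used the strand is not given in the sources used here, so genes that overlap are uncertain. Of the genes described, 19 overlap another protein-coding gene in WBcel235. Conditions and replicates came from the sample titles. No source says how separate the cultures of a condition were, and p-values measure the spread between these libraries.

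The genes and all lists were chosen with earlier results of these data known. Symbols matched 19179 of 20380 identifiers. Exon lengths are unions of exons in WBcel235 by identifier, for 69 of 69 genes. As this build is not ce10, no coordinates are given. Operon membership came from the study's supplementary list of operons (1353 at hand), read for the first and second gene of each operon only.

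Scaled counts and log2 fold changes (pseudocount of 8) followed the study's methods. The depth of 41105706 to 48451504 counts gave each gene at least 435 reads, so that precision is limited by the spread between libraries. edgeR 4.0.16 in R 4.3.3 (glmQLFit, glmQLFTest, TMM, filterByExpr, Benjamini-Hochberg adjustment) was fitted to all genes with a term for the replicate, as the study compared the conditions inside each replicate. This pairing was checked, and the deviations from the condition means correlated between libraries of the same number (r = 0.57). Standard errors were derived from the F statistic (absolute fitted change over its square root). DESeq2 1.42.0, other scalings, pseudocounts, filters and fits without a block or without 1 library were alternatives. Python 3.11.15 with numpy 2.4.6, pandas 2.3.3 and matplotlib 3.10.9 was used for the rest.

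The genes named were *mrps-5*, the 4 highest and 3 lowest per kb of each subunit, the 5 highest and 5 lowest by mean log2 fold change, the 3 whose replicates differed most, the 5 with the smallest edgeR p, the 3 operons with the largest difference from the partner, and *xrn-2*. *mrpl-37* and the genes of the other lists were named after their values were seen.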

Additional observations from a re-analysis of the deposited data

How the results depend on the processing

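With 2 libraries per condition, edgeR called 0 of the 69 genes in each fit tried, including those without 1 library (lowest 0, highest 0). As it called 0 of all tested genes in each, this says nothing about stability. The unadjusted p was under 0.05 for 16 genes with the replicate block, against 12.5% of all tested genes, and for 2 without the replicate block, against 10.2%, where edgeR again called 0. It was under 0.05 for 22 genes without mock replicate 2, against 17.4% of all tested genes. It was under 0.05 for 0 genes without mock replicate 1, *xrn-2* RNAi replicate 1 or *xrn-2* RNAi replicate 2, against 18.1%, 6.12% and 3.06% of all tested genes. DESeq2 called 37. The cause of this difference between tools was not tested. In replicate 2 the median over the 69 genes was -0.52 with TMM and -0.54 with median-of-ratios scaling, against -0.15 by totals. Set against the mock library of the other replicate by totals, the medians were -0.042 for *xrn-2* RNAi replicate 1 and -0.53 for *xrn-2* RNAi replicate 2. The shift of all tested genes in these crossed pairs was not measured. The large minus small subunit difference was -0.032 and -0.11 on summed counts, and 0.027 in replicate 2 with *mrps-18A* and *mrps-30* counted as large. The number of genes with both *xrn-2* RNAi libraries below both mock libraries was 36 by totals and 68 with TMM scaling. By totals it was 37 without mock replicate 1 and 62 without mock replicate 2, against 17.3% and 32.9% of all tested genes. With TMM scaling it was 68 and 69, against 36.2% and 42.1%. The settings that left out *mrpl-44*, set these last counts by TMM or 1 mock library, or moved genes between subunits were added after seeing the data. A minimum mean scaled count of 500 removed none of the 69 genes. A pseudocount of 1 and leaving out *mrpl-44* moved the medians over the 69 genes and the subunit differences by less than the spread between replicates, and the counts of genes lower or higher in both replicates by less than 1.5 times. Of the fitted log2 fold changes of the 27 named genes under 9 alternatives, 7 of 243 changed sign. DESeq2 called 13 of these genes. With total-count scaling the sign changed for *mrpl-17* (0.035), *mrpl-18* (0.015), *mrpl-40* (0.035), *mrps-5* (0.12) and *mrps-11* (0.18), and for *mrps-11* also without mock replicate 1 (0.061) or *xrn-2* RNAi replicate 1 (0.047). Without a library, the block was dropped and a lone library was taken to vary like the other condition.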
